A study of Mus musculus with 12 samples.

Results

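The set described here consists of 8 gene symbols, Malat1, Neat1, Kcnq1ot1, Lncpint, Gm26917, Gm42418, Gm47283 and D10Wsu102e, read as nuclear long noncoding RNAs. They are 8 of the 32285 genes in the deposited count tables, and all 8 had counts in each of the 6 libraries. They were chosen by name, after their levels had been seen to vary with the kind of barcode, so the differences between kinds of barcode are given as descriptions with no test. A barcode, the tag of 1 droplet, was kept with at least 500 unique molecular identifiers (UMIs, counts of distinct captured molecules) outside immunoglobulin genes. Each kept barcode was then placed by 2 shares. The first was the share of its light-chain V UMIs that came from its leading light-chain V gene, with 50% or more called one light chain and less called mixed light chains. A barcode without any light-chain V UMI was also placed in mixed light chains, and no minimum of such UMIs was set. The second was the share of its UMIs outside immunoglobulin genes that came from ribosomal protein genes, with 10% or more called ribosomal-rich and less called ribosomal-poor.

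The cells were antibody-secreting cells, the late B lineage cells (plasmablasts and plasma cells) that release antibody. Their gate took CD138HI cells with eYFP driven by Prdm1, without IgD and CD90.2 and with or without B220, from bone marrow, spleen and thymus of Prdm1-eYFP mice on the C57BL/6 background. All mice were 3 months old, carried the reporter and had no other stated allele or treatment, so by the labels the groups differ in sex and organ only. Differences of pool, sort and library cannot be told apart from those of sex and organ. Each of the 6 combinations of sex and organ gave 1 gene expression library from a pool of 3 mice with 10x Genomics 5′ v1.1 chemistry, so no combination was replicated.

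Of 39949 barcodes in the filtered lists, 36838 (92.21%) were kept. The libraries held 1367972 to 85749785 UMIs, of which immunoglobulin genes took 39.0% to 53.5%, and a median kept barcode held 981.5 to 2098 UMIs outside them. The 4 classes held 3272 barcodes (one light chain, ribosomal-rich), 5941 (one light chain, ribosomal-poor), 5583 (mixed, ribosomal-rich) and 22042 (mixed, ribosomal-poor). Female thymus had 15 barcodes and male thymus 72 in the first class, against 354 to 1828 in the other libraries. Pairs of libraries shared 3 to 242 barcode sequences, at most 3.80% of the smaller library. In the first class all 10 antibody-secreting cell markers were detected in every library and took 121330 to 158270 of every 1000000 UMIs outside immunoglobulin genes, and the sex-linked genes Xist and Ddx3y matched the labelled sex in all 6 libraries.

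Long noncoding RNAs of the nucleus are transcribed like mRNAs but remain at or near chromatin or in nuclear bodies. Malat1 lies in nuclear speckles, the stores of splicing factors. Neat1 is the scaffold on which paraspeckles assemble, and these bodies hold proteins such as Sfpq and Nono. Kcnq1ot1 is read from the paternal allele, antisense to Kcnq1, and silences neighbouring imprinted genes such as Cdkn1c. Lncpint is a transcript induced by p53. The 4 remaining symbols have no function stated here.

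The annotation did not bear out the name of the set for every member. In GENCODE M21 (GRCm38), Malat1 is a lincRNA gene of 1 exon on the minus strand at chr19:5795690-5802672, and Neat1 a lincRNA gene of 1 exon at chr19:5824708-5845478, 22035 bases away on the same strand. Kcnq1ot1 is an antisense transcript of 93092 bases and 1 exon at chr7:143203458-143296549 (minus), inside the span of Kcnq1. Lncpint is a lincRNA gene at chr6:31082565-31220488 (minus), with 13 merged exons of 7378 bases in all. Gm26917 at chr17:39843013-39846341 and Gm42418 at chr17:39846958-39848788 are annotated as lincRNA genes on the plus strand, 616 bases apart. RefSeq lists Gm42418 as Rn18s-rs5, a pseudogene named for its relation to ribosomal RNA (matched by synonym), and which RNA its UMIs come from was not tested.

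Gm42418 shares 96.3% of its 31-base words, on the opposite strand, with a transcript annotated as ribosomal RNA, and 49.6% with AY036118, a counted gene on that strand. That ribosomal RNA is annotated at chr17:39846353-39848827 (minus), next to the end of Gm26917. Which RNA the UMIs of Gm26917 come from was not tested. Gm47283 (chrY:90784738-90816464, plus) and D10Wsu102e (chr10:83360221-83488505, plus) are annotated as protein coding. Of the 31-base words of Gm47283, 46.8% also occur on the same strand in Gm21887, so its counts are uncertain, and it was counted in female libraries as well. D10Wsu102e has a merged exonic length of 123179 bases, and 11.5% of its words occur in other genes. Kcnq1ot1 overlaps Kcnq1, and Lncpint overlaps 2210408F21Rik and Gm13833, on the opposite strand. The strand setting of the counting is not given in the sources used here.

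RefSeq promoters (GRCm38.p6, 250 bases before the start and 50 from it on) were matched by symbol for 4 of the 8 members, and those of the 3 matched members that are known as long noncoding RNAs are shown, for the letters around their starts. The window of D10Wsu102e was searched but is not printed. They were searched for TGACGT, the core of the element bound by XBP1 and ATF6, factors of the secretory programme of plasma cells. Capitals mark each match on either strand, where ACGTCA is the match on the opposite strand, and the last 50 bases are transcribed. The windows are chr19:5802623-5802922 for Malat1, chr7:143296498-143296797 for Kcnq1ot1 and chr6:31218425-31218724 for Lncpint, all on the minus strand and written 5′ to 3′. Only the first entry of each symbol was used. That of Lncpint starts inside its GENCODE gene, which begins at chr6:31220488 on this strand, and its other starts were not searched.
Malat1: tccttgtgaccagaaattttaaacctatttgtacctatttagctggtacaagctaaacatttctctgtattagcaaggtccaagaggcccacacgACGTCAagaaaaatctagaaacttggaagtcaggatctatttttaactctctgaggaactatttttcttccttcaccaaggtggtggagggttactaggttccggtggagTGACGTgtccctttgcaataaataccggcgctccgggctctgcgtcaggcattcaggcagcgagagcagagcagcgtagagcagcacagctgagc
Kcnq1ot1: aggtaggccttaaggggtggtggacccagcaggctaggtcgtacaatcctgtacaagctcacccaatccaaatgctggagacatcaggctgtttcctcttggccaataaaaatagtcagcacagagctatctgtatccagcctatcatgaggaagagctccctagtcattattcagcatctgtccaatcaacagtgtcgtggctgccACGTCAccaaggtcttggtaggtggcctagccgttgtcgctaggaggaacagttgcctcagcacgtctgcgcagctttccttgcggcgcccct
Lncpint: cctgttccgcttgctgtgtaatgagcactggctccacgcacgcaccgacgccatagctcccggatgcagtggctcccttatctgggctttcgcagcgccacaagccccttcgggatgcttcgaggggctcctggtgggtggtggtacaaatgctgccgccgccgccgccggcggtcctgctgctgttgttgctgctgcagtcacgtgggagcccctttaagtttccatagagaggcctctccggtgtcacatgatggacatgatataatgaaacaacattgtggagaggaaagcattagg

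TGACGT had 2 matches in the Malat1 window, 1 in that of Kcnq1ot1, and none in those of Lncpint and D10Wsu102e, while 7.64% of the 27025 promoters of this length held it on either strand. CCAAT, held by 37.9% of promoters, had 3 matches in the Kcnq1ot1 window and 1 in that of D10Wsu102e. GGGCGG, held by 35.9%, had 3 matches in the D10Wsu102e window, and TATAAA, held by 14.2%, had none in any of the 4. The GC content was 47% in the Malat1 window, 53.3% in that of Kcnq1ot1, 58.7% in that of Lncpint and 64% in that of D10Wsu102e, with 10, 9, 18 and 21 CG pairs, against medians of 52.7% and 7 over all promoters. These matches describe letters and do not show binding.

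Malat1 took a far larger share of UMIs in ribosomal-poor than in ribosomal-rich barcodes of every library. Levels are UMIs of a gene per 1000000 UMIs outside immunoglobulin genes (CPM), summed over the barcodes of a class within a library. They are shares and not UMIs per barcode. In one-light-chain, ribosomal-rich barcodes Malat1 stood at 11462 CPM (female) and 9669 (male) in the bone marrow libraries, 14086 and 14225 in those of spleen, and 18107 and 9043 in those of thymus. In the ribosomal-poor barcodes it stood at 89260 and 79267 CPM (bone marrow), 73242 and 81503 (spleen), and 103573 and 102540 (thymus), so the 2 sets of libraries did not overlap. How many of all genes separated without overlap, here and in the comparisons below, was not counted. The mean was 12765 ± 3393 CPM (SD, n = 6 libraries) in the first class and 88231 ± 12582 in the second. The ratio was 2.82 ± 0.43 on the log2 scale (SD, n = 6), or 7.06-fold, with 5.20-fold in female spleen as the lowest and 11.3-fold in male thymus as the highest. In a median barcode Malat1 took 0.800% to 1.15% of UMIs outside immunoglobulin genes in the ribosomal-rich class, by library, and 7.53% to 10.8% in the ribosomal-poor class.

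Neat1, the paraspeckle scaffold, followed the same direction at a lower level. It stood at 68.8 CPM (female) and 69.6 (male) in the bone marrow libraries, 72.7 and 80.7 in those of spleen, and 76.9 (5 UMIs) and 77.7 in those of thymus, all ribosomal-rich. The ribosomal-poor values were 388 and 352, 277 and 369, and 358 and 480 CPM in the same order. All 6 ribosomal-poor values lay above all 6 ribosomal-rich values. The ratio was 2.30 ± 0.25 on the log2 scale (SD, n = 6), or 4.93-fold. Within the ribosomal-rich class Neat1 varied little between libraries (74.4 ± 4.80 CPM, SD, n = 6).

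Kcnq1ot1, the antisense silencer of the Kcnq1 domain, showed a ratio of 3.11 ± 0.56 on the log2 scale (SD, n = 6), or 8.63-fold. Its ribosomal-rich levels were 58.1 CPM (female) and 45.5 (male) in the bone marrow libraries, 74.9 and 70.9 in those of spleen, and 61.5 (4 UMIs) and 22.0 (13 UMIs) in those of thymus. Its ribosomal-poor levels were 509 and 397 CPM, 447 and 477, and 464 and 394 in the same order, again with no overlap. Kcnq1 and Cdkn1c, which lie in the silenced domain, were at 0 to 1.87 CPM in the 4 classes of all libraries.

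Lncpint, the p53-induced transcript, had the highest mean ratio of the 8, 3.38 ± 0.47 on the log2 scale (SD, n = 5 libraries). Its ribosomal-rich levels were 7.71 CPM (female) and 12.4 (male) in the bone marrow libraries, 12.4 and 15.4 in those of spleen, and 0 and 10.1 (6 UMIs) in those of thymus. The ribosomal-poor levels were 122 and 117 CPM, 96.0 and 121, and 59.7 (13 UMIs) and 136. Female thymus had 13 UMIs against 0, which against a floor of 3 counts is at least 1.29-fold higher.

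The annotated lincRNA Gm26917 stood at 93.6 CPM (female) and 157 (male) in the bone marrow libraries, 172 and 367 in those of spleen, and 169 (11 UMIs) and 171 in those of thymus among ribosomal-rich barcodes. Among ribosomal-poor barcodes it stood at 627 and 1635 CPM, 569 and 2075, and 1263 and 1230. The classes did not overlap, the ratio was 2.68 ± 0.55 on the log2 scale (SD, n = 6), and male levels were above female levels in bone marrow and spleen of both classes. Its neighbour Gm42418 went from 30064 and 20806 CPM (bone marrow), 15254 and 25569 (spleen), and 11923 and 12740 (thymus) to 94964 and 66951, 31545 and 60214, and 40579 and 33714. Its share was higher in ribosomal-poor barcodes of all 6 libraries, by 2.76-fold (log2 1.47 ± 0.29, SD, n = 6), the smallest of the 7 ratios with the same sign in every library.

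D10Wsu102e, annotated as protein coding, had a ratio of 3.12 ± 0.46 on the log2 scale (SD, n = 6), or 8.70-fold. It stood at 71.8 CPM (female) and 67.0 (male) in the bone marrow libraries, 118 and 120 in those of spleen, and 185 (12 UMIs) and 84.5 in those of thymus among ribosomal-rich barcodes, against 865 and 812, 818 and 956, and 1006 and 830 among ribosomal-poor ones. Gm47283 did not share a direction across organs. It went from 14.6 to 33.6 CPM (female bone marrow), 19.2 to 40.5 (male bone marrow), 9.59 to 19.0 (female spleen) and 11.5 to 29.6 (male spleen), but stood at 61.5 (4 UMIs) against 23.0 (5 UMIs) in female thymus and 40.6 (24 UMIs) against 34.1 (22 UMIs) in male thymus. Its mean log2 ratio was 0.49 ± 1.10 (SD, n = 6), within the spread between libraries.

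**Figure D1:**
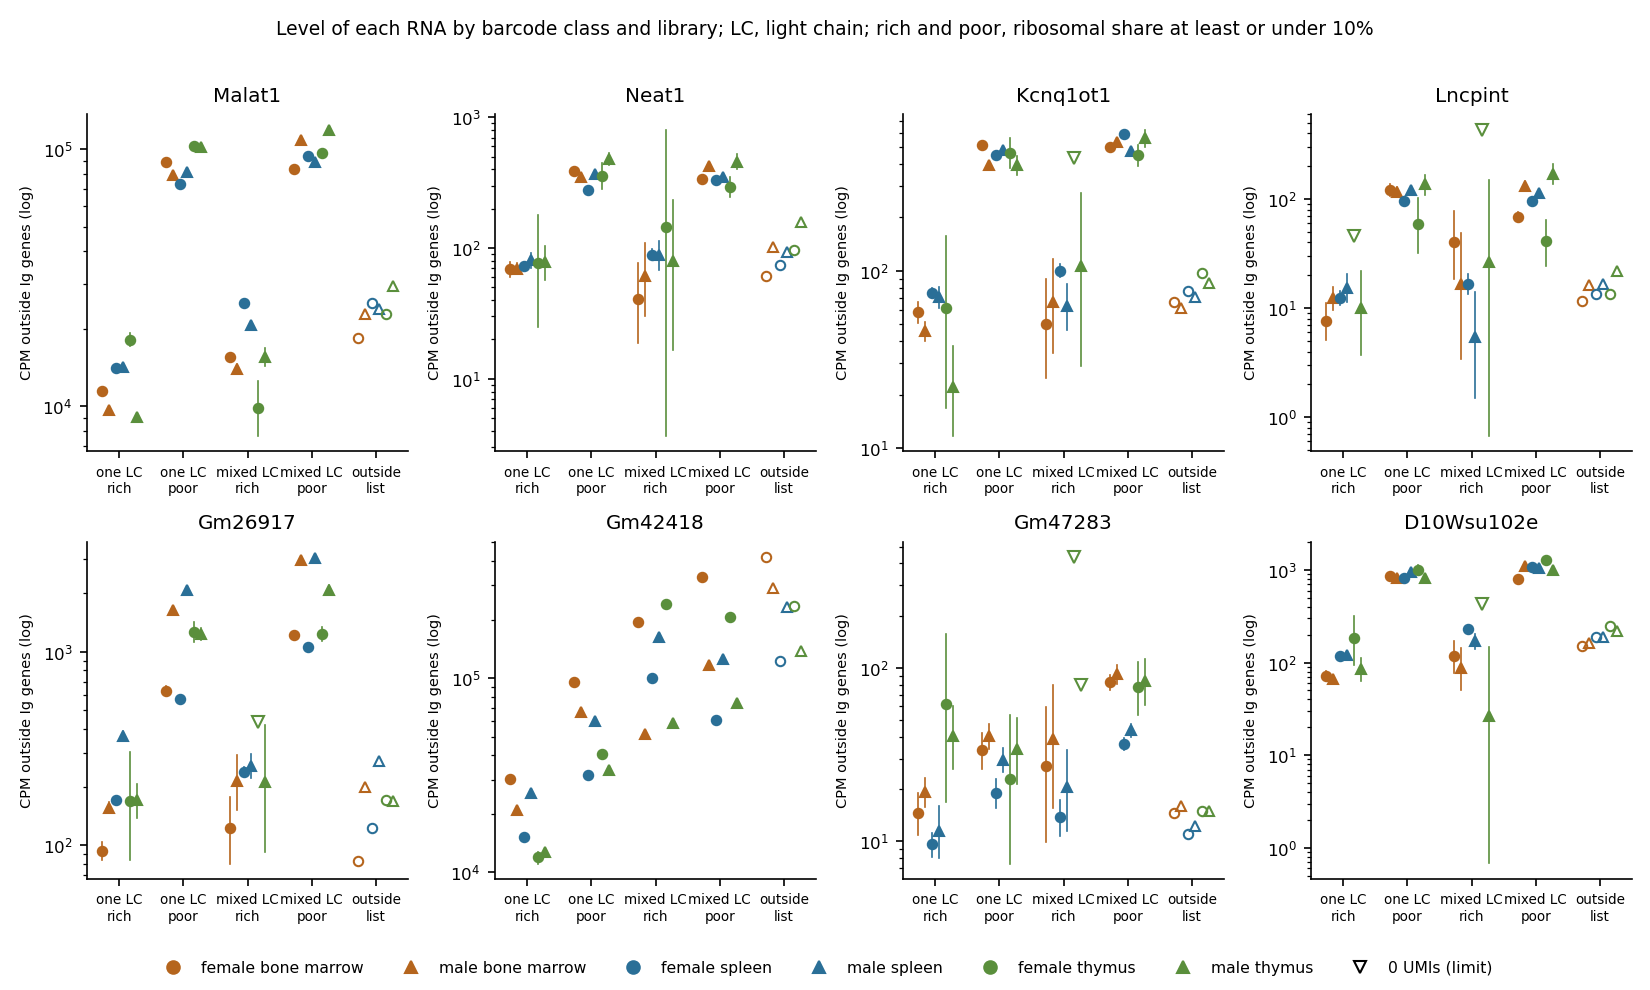
CPM (log axis) of each member by library in the 4 barcode classes and in barcodes outside the filtered lists, with exact 95% Poisson intervals, which cover counting error only, and open triangles at the limit where no UMI was counted. Malat1 lies between 9043 and 18107 CPM in one-light-chain, ribosomal-rich barcodes and between 73242 and 103573 in ribosomal-poor ones.

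In all, 7 of the 8 members were higher in ribosomal-poor barcodes of all 6 libraries, and so were 49.4% of the 7931 genes with a mean of at least 10 CPM, while 16.4% were lower in all 6. That mean was taken over both classes and all libraries, here and in the other class contrasts. A gene could therefore pass through its level in 1 class alone. Malat1, Kcnq1ot1 and D10Wsu102e were over 4-fold higher in each library, and 1.74% of all genes were with 0.5 UMI added to each sum. With that addition Lncpint also passes, but its female thymus value rests on 13 against 0 UMIs, where the floor of 3 counts gives only at least 1.29-fold. The median log2 ratio was 2.74 over the members and 0.72 over all genes, whose 5th and 95th percentiles were -1.54 and 2.21. Ranked by mean ratio, Lncpint was 5th, D10Wsu102e 9th and Kcnq1ot1 10th, behind 4 transcripts annotated as sense intronic (Gm43331, Gm43329, Gm43462 and Gm43330, 3.57 to 3.81) at the top. The mean over both classes was only 10.4 to 28.8 CPM for these 4, so their ratios rest on low ribosomal-rich levels. Malat1 lay above 99.5%, Neat1 above 95.9%, Gm42418 above 76.6% and Gm47283 above 42.2% of genes.

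**Figure D2:**
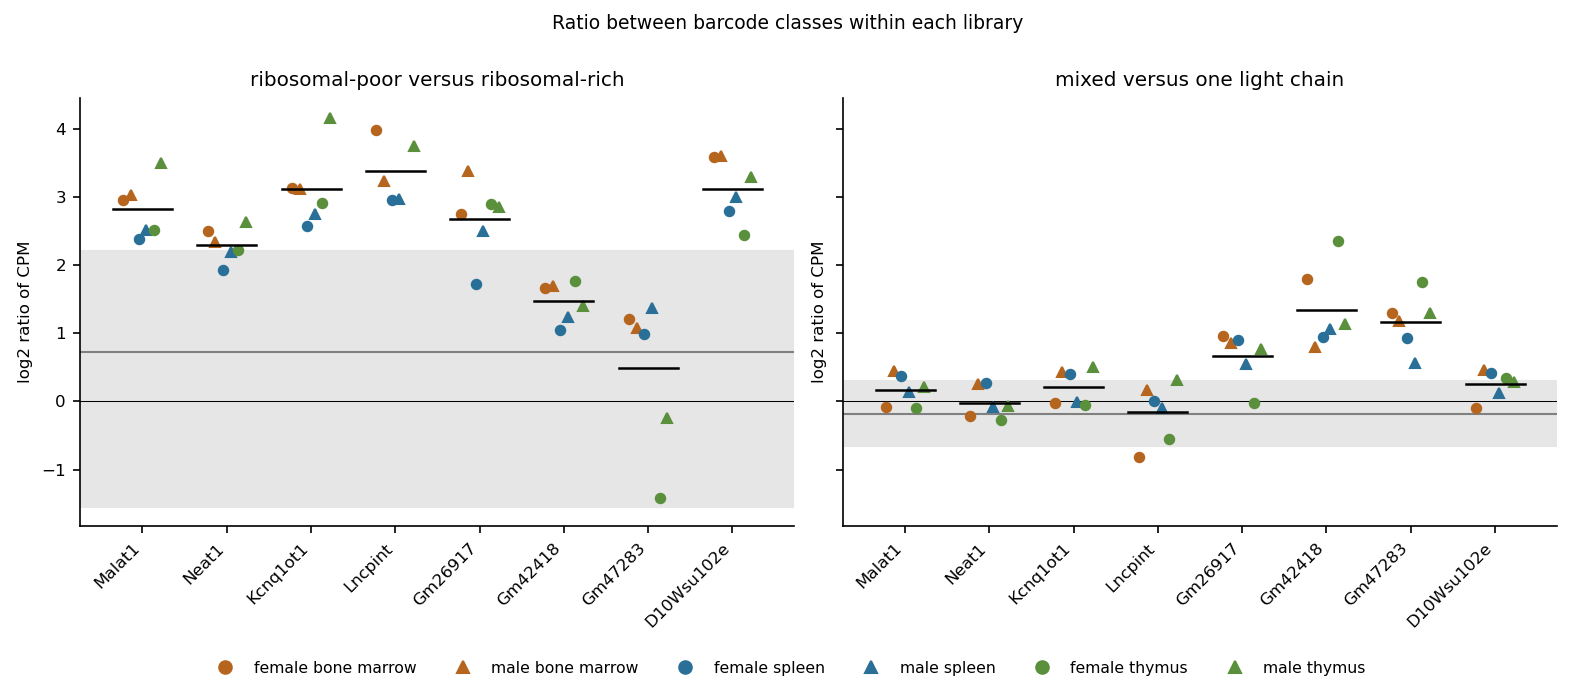
Log2 ratio of CPM between classes for each member, 1 point per library and a black bar at the mean, with the grey band spanning the 5th to 95th percentile and the grey line the median of all genes. For ribosomal-poor versus ribosomal-rich barcodes 7 members lie above 0 in all libraries, and for mixed versus one light chain Gm42418 and Gm47283 do.

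The levels moved along the ribosomal share without a step at the limit of 10%. Over all libraries together, Malat1 in one-light-chain barcodes stood at 106360 CPM where ribosomal proteins took under 2% of UMIs, 71811 at 4% to 6%, 27825 at 8% to 10% (295 barcodes), 21481 at 10% to 12% (390 barcodes) and 9301 at 20% or more. On either side of the limit D10Wsu102e stood at 238 and 179 CPM, Kcnq1ot1 at 159 and 119, Neat1 at 119 and 85.8, Lncpint at 22.3 and 18.0, Gm26917 at 358 and 316, Gm42418 at 39526 and 27116, and Gm47283 at 13.6 and 13.2.

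**Figure D3:**
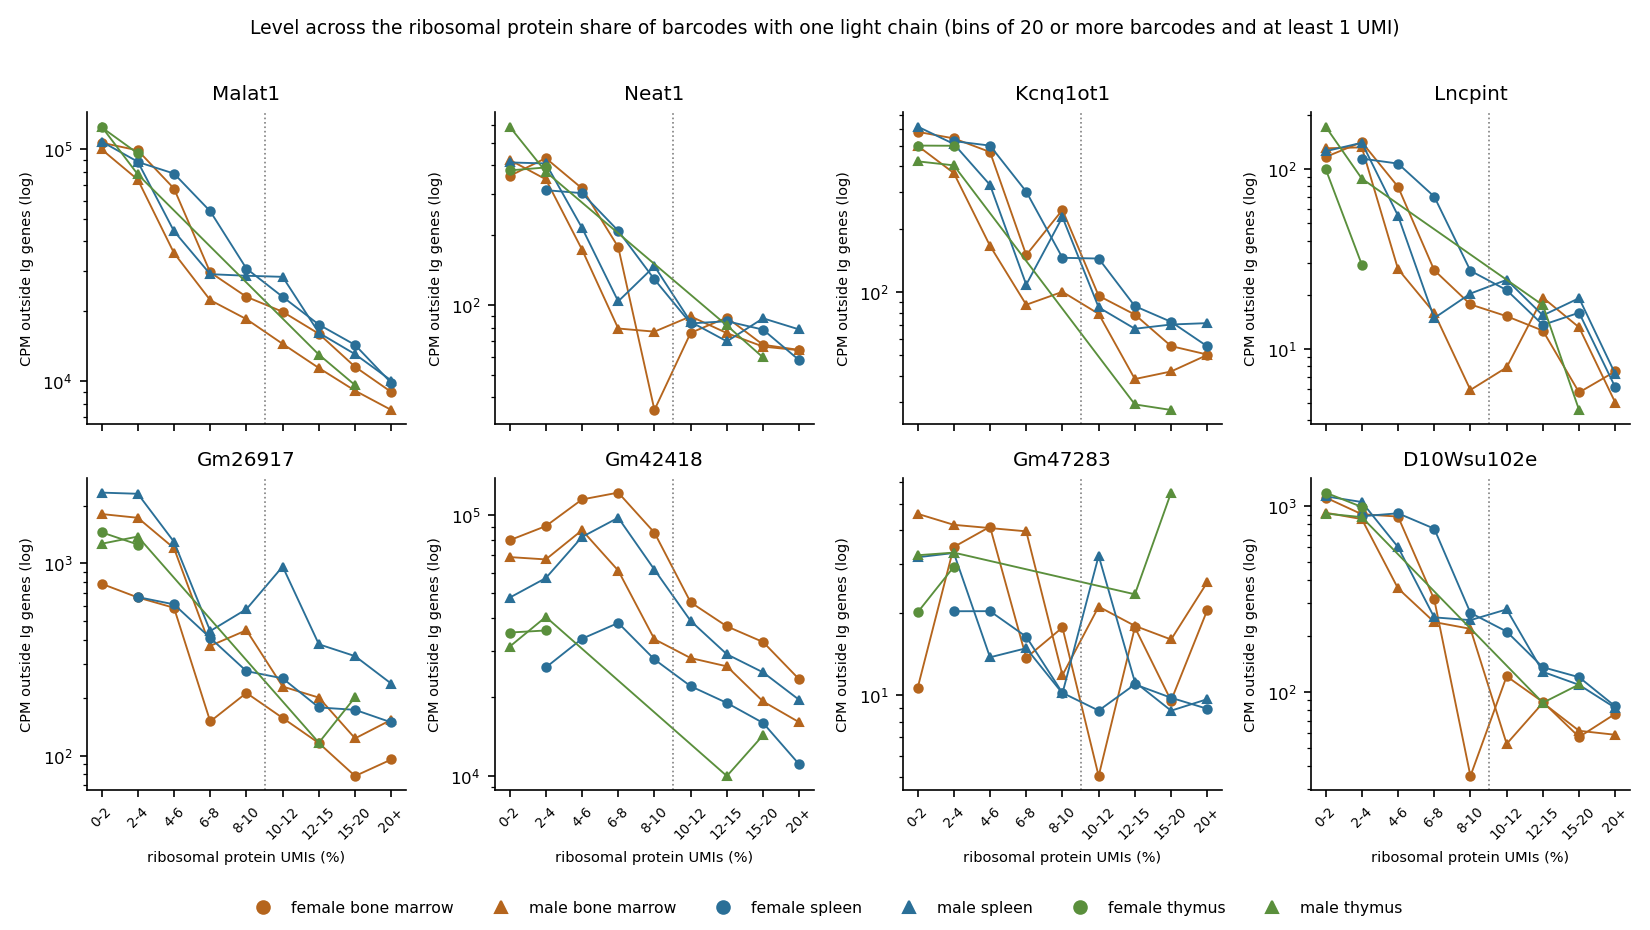
CPM of each member (log axis) across bins of the ribosomal protein share (percent of UMIs outside immunoglobulin genes) in one-light-chain barcodes, 1 line per library, for bins of at least 20 barcodes, with a dotted line at 10%. Malat1 goes from 106360 CPM in the lowest bin to 9301 in the highest, over all libraries together.

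Ribosomal-poor barcodes differed in other measures too. Their median UMI count outside immunoglobulin genes was 1676 to 3003 by library against 4185 to 9807 in the ribosomal-rich class, and their median mitochondrial share 4.93% to 7.13% against 1.75% to 2.09%. The antibody-secreting cell markers summed to 26635 to 60907 CPM against 121330 to 158270. Of these 10 markers, Jchain, Mzb1, Tnfrsf17 and Fkbp11 were lower in all 6 libraries (mean log2 ratios -2.04, -1.22, -0.98 and -1.41) and Irf4 was higher in all 6 (1.39). Since depth differed, a higher share need not mean more UMIs per barcode. In female spleen 1833 ribosomal-poor barcodes held 174242 UMIs of Gm42418 and 404555 of Malat1, and 1828 ribosomal-rich ones 241660 and 223145. In the same order, female bone marrow had 907 with 200808 and 188746, and 418 with 109251 and 41651. Male bone marrow had 1184 with 243080 and 287796, and 585 with 119319 and 55453. Male spleen had 1616 with 299442 and 405306, and 354 with 77934 and 43358. Female thymus had 118 with 8838 and 22558, and 15 with 775 and 1177. Male thymus had 283 with 21761 and 66185, and 72 with 7539 and 5351. Read per barcode, Malat1 was higher in ribosomal-poor barcodes of every library, and Gm42418 was not. The part of depth, mitochondrial share and free RNA in the members' ratios was not tested.

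Genes with more merged exonic bases had higher ratios as a whole, and 5 of the 8 members have over 5000 of them. The median log2 ratio was -0.81 over 1030 genes with under 2000 exonic bases, 0.36 over 3296 genes of 2000 to 5000, 1.22 over 2742 genes of 5000 to 10000, 1.75 over 795 genes of 10000 to 20000 and 2.0 over 68 genes of 20000 or more. Neat1 (20771 bases), Kcnq1ot1 (93092) and D10Wsu102e (123179) belong to the last group, and Malat1 (6983) and Lncpint (7378) to that of 5000 to 10000. The bases of Lncpint are merged over 16 transcripts, of which the longest has 1676. Gm26917 (3329), Gm42418 (1831) and Gm47283 (1124) have fewer. By annotated type the medians were close, 0.58 over 119 lincRNA and antisense genes and 0.72 over 7740 protein-coding genes. The part of exonic length in the members' ratios was not tested.

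**Figure D4:**
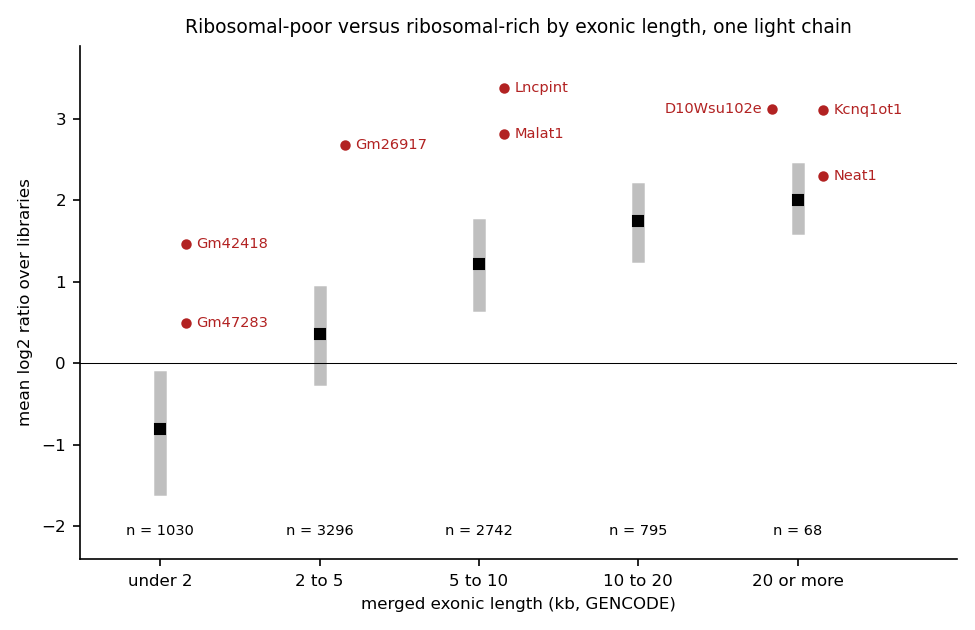
Median and quartiles of the log2 ratio between ribosomal-poor and ribosomal-rich barcodes by merged exonic length (kb), with the members in red. The median goes from -0.81 under 2 kb to 2.0 at 20 kb or more.

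Partners of these RNAs were read from lists of the pathway, beside the 49.4% of all genes that were higher in ribosomal-poor barcodes of all 6 libraries and the 16.4% that were lower. Among 15 paraspeckle proteins, 11 were higher in ribosomal-poor barcodes of all 6 libraries and 2, Nudt21 and Rbm3, lower in all 6, with a median log2 ratio of 1.03. Among 21 proteins of nuclear speckles and splicing, 18 were higher in all 6 libraries (median 1.12), led by the helicase Ddx17 (2.33 ± 0.55, SD, n = 6), the splicing factor Luc7l2 (2.15 ± 0.43) and the kinase Clk1 (1.99 ± 0.35). Of 9 other nuclear long noncoding RNAs with a mean of at least 10 CPM over both classes, 8 were higher in all 6 (median 1.82), among them Dleu2 (2.31 ± 0.85), Tug1 (2.19 ± 0.79) and Jpx (1.88 ± 0.62).

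The next list held long noncoding RNAs that host small nucleolar RNAs or act in the cytoplasm. Of 11 with enough counts, 2 (Snhg12 and Snhg17) were higher in all 6 libraries and 1 (Snhg3) was lower, and the median was 0.12, beside 0.72 over all genes. Of 5 genes of the Kcnq1ot1 domain only Nap1l4 was higher in all 6 (median 0.25). Of 10 p53 targets 5 were, Mdm2, Sesn1, Trp53inp1, Zmat3 and Btg2 (median 0.85), a share near the 49.4% of all genes.

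Barcodes with mixed light chains repeated the ribosomal difference for most members. Between their ribosomal-poor and ribosomal-rich classes the mean log2 ratio was 2.61 ± 0.54 for Malat1 and 2.21 ± 0.73 for Neat1 (SD, n = 6), 2.84 ± 0.37 for Kcnq1ot1, 3.22 ± 0.63 for Gm26917 and 3.31 ± 1.2 for D10Wsu102e (SD, n = 5), with 1 library, female thymus, at 0 UMIs in the ribosomal-rich class for each of these 3. With 0.5 UMI added to each sum, 6 members (all but Lncpint and Gm42418) were higher in 6 of 6 libraries, and 7.29% of 8016 genes were. By their own UMIs Malat1 and Neat1 were higher in all 6. Kcnq1ot1, Gm26917 and D10Wsu102e were higher in each of the 5 libraries with UMIs in both classes. So was Lncpint, also at 0 in female thymus, and Gm47283, at 0 in both thymus libraries, was higher in the 4 with UMIs in both. Gm42418 was higher in 3 libraries and lower in 3 (0.16 ± 0.73, SD, n = 6). Macrophage markers were higher in the ribosomal-rich of these classes in all 6 libraries, at 2339 against 339.5 CPM (female) and 1972 against 657 (male) in bone marrow, 549 against 347 and 975.1 against 211 in spleen, and 2606 against 84.1 and 453 against 159 in thymus. Neutrophil markers were lower in it in bone marrow (526 against 15799 and 6072 against 27237 CPM). Erythroid markers were higher in it in bone marrow (2053 against 501 and 210.0 against 28.3) and lower in spleen (134 against 513 and 175 against 1888). Their part in the members' ratios was not tested. The mixed, ribosomal-rich class held 7 barcodes in male and 8 in female thymus, and its values there rest on few UMIs.

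The light-chain share separated the members otherwise. Among ribosomal-poor barcodes, Gm42418 stood at 330401 CPM (female) and 116285 (male) in the bone marrow libraries, 60575 and 125359 in those of spleen, and 206604 and 73978 in those of thymus with mixed light chains, above the one-light-chain level of the same library in each. Its mean log2 ratio was 1.35 ± 0.60 (SD, n = 6). In female bone marrow it took 33.0% of the UMIs outside immunoglobulin genes of the mixed, ribosomal-poor class. Gm47283 went from 33.6 to 82.6 CPM, 40.5 to 91.7, 19.0 to 36.4, 29.6 to 43.6, 23.0 to 77.2 and 34.1 to 84.0 with the libraries in the same order, a log2 ratio of 1.17 ± 0.40 (SD, n = 6).

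These 2 members, of 8, were higher with mixed light chains in all 6 libraries, against 2.3% of 8322 genes, whose median log2 ratio was -0.19. Gm26917 was higher in 5 of 6 (0.67 ± 0.37), not in female thymus. Malat1 (0.16 ± 0.23), Neat1 (-0.02 ± 0.23), Kcnq1ot1 (0.21 ± 0.26), Lncpint (-0.16 ± 0.44) and D10Wsu102e (0.25 ± 0.21) did not move in 1 direction in all libraries (SD, n = 6). The count of 2 depends on the settings. It was 3 without ribosomal protein genes in the total (2.44% of all genes), 5 with at least 1000 UMIs (1.97%), 6 with a ribosomal limit of 5% (2.7%), 6 with 15% (2.16%), 5 with a light-chain limit of 80% (1.78%) and 2 with a mitochondrial share under 10% (2.28%). With Malat1 and Gm42418 together left out of the total it was 7, beside 9.44% of all genes, and the mean ratio of Malat1 was 0.37. The part of each of these 2 genes in that change was not tested. At the light-chain limit itself Gm42418 stood at 63995 CPM in barcodes with a share of 40% to 50% and 57263 at 50% to 60%, against 177280 at under 20%. Malat1 stood at 89516 and 87609 CPM on the 2 sides.

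Other genes moved with Gm42418. AY036118, on the opposite strand of the same locus, had a log2 ratio of 1.19 and Lars2, a mitochondrial leucyl-tRNA synthetase, 1.25, ranks 16 and 14 of all genes, beside 12 for Gm42418 and 17 for Gm47283. Depth and mitochondrial share moved with this contrast too, both lower with mixed light chains in each library. The median UMI count outside immunoglobulin genes was 782 to 1855 by library with mixed light chains and 1676 to 3003 with one. The median mitochondrial share was 1.10% to 5.14% against 4.93% to 7.13%. The median ribosomal share, along which the members' levels moved, was higher with mixed light chains in each library, at 3.01% to 6.19% against 1.73% to 4.73%. Of 81 ribosomal protein genes, 62 were higher with mixed light chains in all 6 libraries. The part of these measures in the members' ratios was not tested. Markers of other cells moved with this contrast as well. In mixed, ribosomal-poor barcodes the 9 neutrophil markers summed to 15799 (female) and 27237 CPM (male) in bone marrow (9 of 9 detected), against 183 and 3545 CPM in the one-light-chain class, and to at most 2.27 CPM in spleen and thymus. Erythroid markers summed to 501 CPM (female) and 28.3 (male) in bone marrow and 513 and 1888 in spleen, against 36.4, 15.4, 12.3 and 32.4 in the one-light-chain class, and to at most 2.27 CPM in thymus. Their part in the members' ratios was not tested.

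Barcodes outside the filtered lists, 447959 to 666834 per library, were taken as a measure of free RNA. Their counts were written with Cell Ranger 4 and those of the filtered lists with 6.0.2, and the effect of this was not tested. They held 24406437 UMIs outside immunoglobulin genes in female bone marrow and 34519436 in female spleen, against 11087941 and 42816907 in kept barcodes. They need not hold free RNA alone. Of their UMIs, 24.3% (female thymus) to 95.2% (female spleen) came from barcodes with over 100 UMIs, so levels are also given from barcodes with 1 to 100 UMIs alone, a setting added after seeing the data. Over all these barcodes Gm42418 stood at 122510 CPM in female spleen to 418932 in female bone marrow. In those with 1 to 100 UMIs it stood at 62062 CPM in female spleen to 231400 in female thymus, and at 123643 in female bone marrow. Its level in one-light-chain, ribosomal-rich barcodes was 0.0824 times the free level (median of 6 libraries), 0.239 times in ribosomal-poor ones and 0.540 times in mixed, ribosomal-poor ones. Against barcodes with 1 to 100 UMIs these medians were 0.209, 0.525 and 1.01, and mixed, ribosomal-poor barcodes were above the free level in 3 libraries, both of bone marrow and male spleen, in place of none, and mixed, ribosomal-rich ones in 4 in place of 1. Malat1 stood at 18367 to 29312 CPM in free RNA. One-light-chain, ribosomal-rich barcodes were below that in all 6 libraries (0.577 times, median), and ribosomal-poor barcodes above it in all 6 (3.48 times). With 1 to 100 UMIs the medians were 0.402 and 2.95, again below in all 6 and above in all 6.

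The 6 remaining members were read against free RNA in the same way. In one-light-chain, ribosomal-poor barcodes Neat1 was 3.70, Kcnq1ot1 6.13, Lncpint 7.15, Gm26917 7.46, D10Wsu102e 4.63 and Gm47283 2.29 times the free level (medians), each above it in all 6 libraries. In ribosomal-rich barcodes the medians were 0.828, 0.808, 0.713, 1.06, 0.549 and 1.10 in that order, and 4 libraries for Gm26917, 4 for Gm47283 and 1 for Neat1 were above the free level. In thymus Gm47283 was further above free RNA in ribosomal-rich barcodes (4.13 times in the female library and 2.71 in the male) than in ribosomal-poor ones (1.54 and 2.28). Its female thymus values rest on 4 and 5 UMIs in these 2 classes.

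Against barcodes with 1 to 100 UMIs several of these folds were lower by over 1.5 times. The ribosomal-poor medians were 3.37 for Neat1, 2.44 for Kcnq1ot1, 3.94 for Lncpint, 3.5 for Gm26917, 2.69 for D10Wsu102e and 1.73 for Gm47283, each still above 1 in all 6 libraries. The ribosomal-rich medians were 0.672, 0.268, 0.431, 0.525, 0.281 and 1.09 in that order, and only Gm47283, in 3 libraries, was above the free level.

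Across 23 profiles (library by class, each with at least 20000 UMIs) and 8060 genes, the likeness of each pattern was read as Pearson's r of log2(CPM + 1). The profiles share libraries and totals, so r is a description. Malat1 was closest to Luc7l2 (0.980), Ddx17 (0.979) and Kcnq1ot1 (0.977), and Kcnq1ot1 to Malat1, Phf20l1 (0.970) and Luc7l2 (0.968). Neat1 was closest to Tyk2 (0.973), Zfp292 (0.970) and Ccdc134 (0.969), and Lncpint to Chd8 (0.947), Zfp182 and Samd8 (0.945 each). D10Wsu102e was closest to Ascc3 (0.981), Zc3h7a (0.978) and Nktr (0.976), Gm26917 to Snrnp70 (0.942), Neat1 (0.934) and Spen (0.931), and Gm47283 to Zfp687 (0.924), Gramd1a (0.922) and Pwwp3a (0.920).

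Gm42418 stood apart: its closest gene was Lars2 (0.818), followed by Irf2bp2 (0.800) and Mob1a (0.768). Among the members, r with Malat1 was 0.977 for Kcnq1ot1, 0.967 for Neat1, 0.959 for D10Wsu102e and 0.924 for Gm26917, but 0.805 for Lncpint, 0.499 for Gm47283 and 0.480 for Gm42418.

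Organ and sex were compared in one-light-chain, ribosomal-rich barcodes. In their sums ribosomal proteins took 14.85% (female) and 16.73% (male) of UMIs outside immunoglobulin genes in thymus, against 17.19% to 19.18% in bone marrow and spleen. A median female thymus barcode held 4185 such UMIs, against 7872 to 9807 in the other libraries. The part of both in the contrasts was not tested. The members had been read by tissue, with earlier results of these data known, so these contrasts are not independent of the choice of the members and their p-values are no independent support. UMIs were summed per library and tested with edgeR's quasi-likelihood test in 1 additive model of sex and organ over the 6 libraries, with p-values adjusted over 9729 genes by the Benjamini-Hochberg method at 0.05. The libraries of a tissue are 1 female and 1 male pool, and the labels do not say if 1 pool of mice gave all organs of a sex. With 1 library per sex and organ, the p-values do not measure the spread between replicates. The fit leaves 2 residual degrees of freedom, which also hold any sex difference that varies by organ. Its default gave no gene a variance of its own and took a spread shared over genes. Calls are therefore also given with adjusted deviances, a setting added after seeing the data.

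Thymus and bone marrow differed in none of the 8 members (3 of 8 at an unadjusted p under 0.05), while 1.28% of all genes were called. The fold changes on the log2 scale were 0.08 (SE 0.37, adjusted p = 0.983, edgeR) for Malat1, 0.04 for Neat1, -0.99 (SE 0.36, adjusted p = 0.223) for Kcnq1ot1, -0.41 for Lncpint, 0.06 for Gm26917, -1.27 (SE 0.42, adjusted p = 0.124) for Gm42418, 1.14 (SE 0.38, adjusted p = 0.134) for Gm47283 and 0.40 for D10Wsu102e. No member was called with adjusted deviances (0.504% of all genes were) or with DESeq2 (0.483%). The female thymus sum rests on 15 barcodes. Gm42418 passed without female thymus (-1.14) or without male thymus (-1.43) and in 5 of 16 other alternatives, each time lower in thymus.

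Between thymus and spleen 3 of 8 members were called, beside 1.45% of all genes. In thymus Kcnq1ot1 was lower (61.5 and 22.0 CPM against 74.9 and 70.9, log2 -1.47, SE 0.35, edgeR adjusted p = 0.0031), and so was Gm26917 (169 and 171 CPM against 172 and 367, log2 -0.99, SE 0.20, adjusted p = 2.6e-04). Gm47283 was higher (61.5 and 40.6 CPM against 9.59 and 11.5, log2 1.82, SE 0.41, adjusted p = 0.0014). The female thymus values rest on 4 UMIs for Kcnq1ot1, 11 for Gm26917 and 4 for Gm47283. For Gm26917 the female values, 169 and 172 CPM, lay closer than the male values, 171 and 367. The CPM set beside the calls, here and below, lack the scaling between libraries (TMM) that the fold changes use. With it the Gm26917 values in thymus and spleen were 144 and 187 CPM (female) and 167 and 373 (male). With adjusted deviances, which called 0.37% of all genes, Gm47283 passed (adjusted p = 0.041), and Kcnq1ot1 (0.085) and Gm26917 (0.099) did not. DESeq2, which called 0.349%, likewise called Gm47283 alone of the members (adjusted p = 0.012). Each call was kept without female thymus and lost without any 1 of the other 5 libraries; without male thymus the fold changes were -0.71 for Kcnq1ot1, -0.48 for Gm26917 and 2.31 for Gm47283. Malat1 (-0.35), Neat1 (-0.10), Lncpint (-0.90), Gm42418 (-0.90) and D10Wsu102e (-0.36) did not pass.

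Spleen was above bone marrow in 3 of 8 members, beside 3.72% of all genes (137 higher and 225 lower). Gm26917 stood at 172 and 367 CPM in spleen (female, male) against 93.6 and 157 in bone marrow (log2 1.06, SE 0.13, edgeR adjusted p = 4.6e-13), with both spleen values above both bone marrow values. D10Wsu102e was at 118 and 120 CPM against 71.8 and 67.0 (log2 0.77, SE 0.13, adjusted p = 4.9e-07). Kcnq1ot1 was at 74.9 and 70.9 CPM against 58.1 and 45.5 (log2 0.48, SE 0.13, adjusted p = 0.012). With adjusted deviances (1.07% of genes called) the adjusted p was 0.0041 for Gm26917, 0.021 for D10Wsu102e and 0.18 for Kcnq1ot1, and with DESeq2 (0.175% called) only Gm26917 of these passed (0.024, against 0.53 and 1.0). Each call was lost without any 1 bone marrow or spleen library and kept without either thymus library. Malat1 (0.43, SE 0.37, adjusted p = 0.729), Neat1 (0.14), Lncpint (0.49), Gm42418 (-0.37) and Gm47283 (-0.68, adjusted p = 0.0596) did not pass.

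Between the sexes 1 of 8 members was called, beside 4.59% of all genes. Gm26917 was higher in male than in female libraries (157 against 93.6 CPM in bone marrow, 367 against 172 in spleen and 171 against 169 in thymus), by 0.80 on the log2 scale (SE 0.13, edgeR adjusted p = 6.6e-08). With TMM scaling its thymus values were 167 against 144 CPM. With adjusted deviances, which called 0.709% of all genes, the adjusted p was 0.028, and with DESeq2, which called 0.123%, it was 0.40. The call was lost without any 1 bone marrow or spleen library, where the fold change was 0.52 to 0.75. In the ribosomal-poor class the difference was 1.03 (edgeR adjusted p = 4.5e-05, with 4.67% of genes called), with male levels again above female in bone marrow and spleen and 1230 against 1263 CPM in thymus. The Y-annotated Gm47283 did not pass (0.19, adjusted p = 0.745), nor did Malat1 (-0.41, adjusted p = 0.553).

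**Figure D5:**
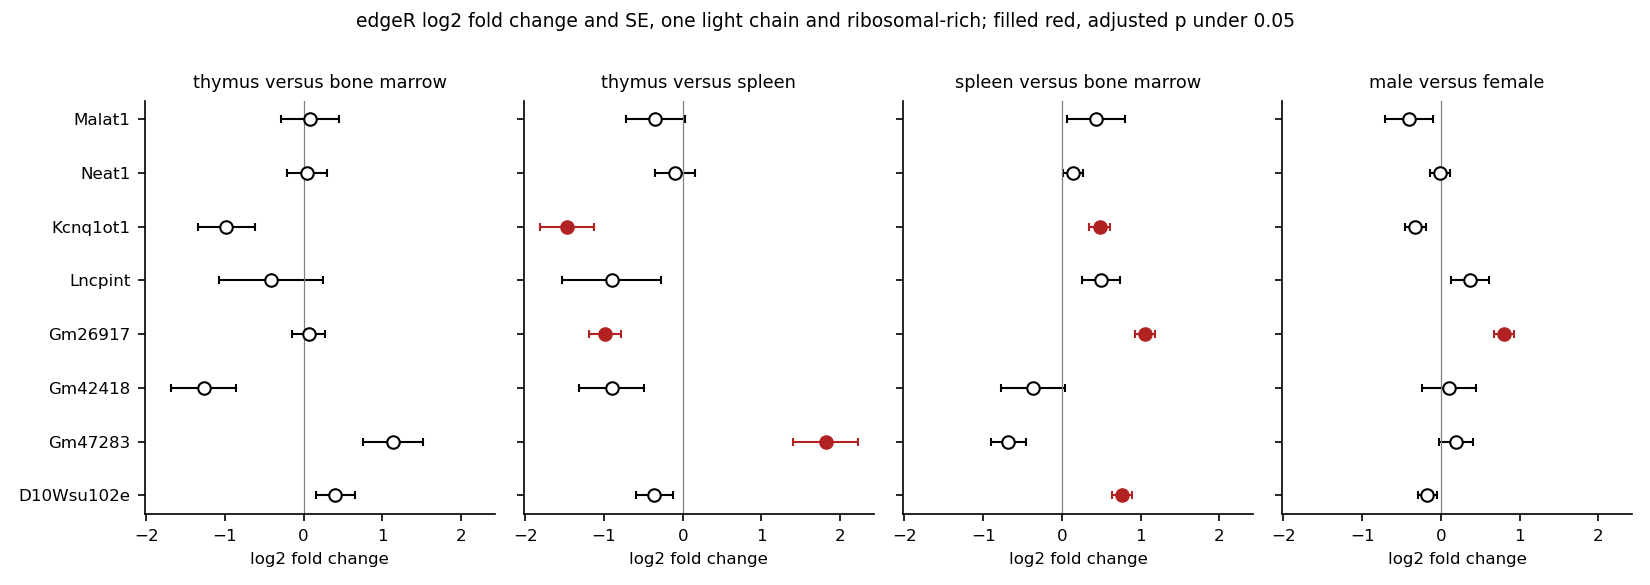
Log2 fold change ± SE (edgeR) of each member in one-light-chain, ribosomal-rich barcodes for the 4 contrasts, filled red where the adjusted p is under 0.05. Gm26917 is called in 3 contrasts, Kcnq1ot1 in 2, and D10Wsu102e and Gm47283 in 1 each.

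The organ differences were not called in the ribosomal-poor class, where 1.78% of genes were called between thymus and bone marrow, 5.13% between thymus and spleen and 3.14% between spleen and bone marrow, and the difference between the classes was not itself tested. There thymus against spleen gave -0.23 for Kcnq1ot1, 0.08 for Gm26917 and 0.16 for Gm47283 on the log2 scale, and spleen against bone marrow gave 0.06 for Kcnq1ot1, 0.10 for D10Wsu102e and 0.15 for Gm26917, with edgeR adjusted p-values of 0.61 to 0.94. Gm42418 was lower in thymus than in bone marrow of this class (-1.22, SE 0.29, edgeR adjusted p = 0.0081). Free RNA was set beside these levels. Over all barcodes outside the filtered lists Gm26917 stood at 83.3 CPM (female) and 199 (male) in free RNA of bone marrow, 123 and 273 in that of spleen and 171 and 170 in that of thymus, and its ribosomal-rich level was 0.788 to 1.4 times that. Free Kcnq1ot1 was highest in thymus (97.4 and 84.8 CPM, against 77.2 and 70.9 for spleen and 66.4 and 61.3 for bone marrow), while its tested level was called lower in thymus than in spleen. Kcnq1ot1 was at 0.259 to 1.0, D10Wsu102e at 0.386 to 0.750 and Gm47283 at 0.865 to 4.13 times their free levels. In barcodes with 1 to 100 UMIs alone Gm26917 stood at 288 (female) and 442 CPM (male) for bone marrow, 354 and 629 for spleen, and 183 and 303 for thymus, and free Kcnq1ot1 was lowest in thymus (110.0 and 155, against 279.6 and 265 for spleen and 180.4 and 169.5 for bone marrow). The 4 ranges were then 0.325 to 0.926, 0.142 to 0.560, 0.227 to 0.711 and 0.569 to 3.67, in the same order. The part of free RNA in the calls was not tested.

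Other cells left traces in the class tested. The 9 neutrophil markers summed to 765 (female) and 57.7 CPM (male) in bone marrow (8 of 9 detected in each), 0.126 and 0.328 CPM in spleen and 0 in thymus, the 9 macrophage markers to 30.8 to 261 CPM and the 10 T cell markers to 12.9 to 46.2, and B cell markers to 385 to 523. Markers were called by edgeR in each contrast. Between thymus and bone marrow 4 neutrophil markers and the macrophage gene Lyz2 were lower in thymus and Irf4 was higher. Between thymus and spleen Apoe (log2 -1.90, edgeR adjusted p = 2.3e-07) and the secretory cell gene Mzb1 (-1.24, 0.025) were lower in thymus. Between spleen and bone marrow 4 neutrophil markers, Lyz2 (-4.85) and the T cell gene Cd3g (-1.42) were lower in spleen, and Apoe (1.39), Mrc1 (1.48), Cd8b1 (1.83) and Fkbp11 (0.84) higher. Between the sexes 3 neutrophil markers, Lyz2 (-3.13), Apoe (-0.70) and Fkbp11 (-0.52) were lower in males and Hbb-bs (1.46) higher. With adjusted deviances S100a8 and S100a9 passed between thymus and bone marrow, Fkbp11, Lyz2 and the 4 neutrophil markers between spleen and bone marrow, and the 3 neutrophil markers between the sexes. With DESeq2 Fkbp11 and Ngp passed between spleen and bone marrow, and no other of these. Their part in the members' differences was not tested.

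Partner genes were read in the same fit, which called 1.28% of all genes between thymus and bone marrow, 1.45% between thymus and spleen and 3.72% between spleen and bone marrow. None of 15 paraspeckle proteins, 21 speckle and splicing proteins, 10 other nuclear long noncoding RNAs, 16 host and cytoplasmic ones, 5 genes of the Kcnq1ot1 domain or 11 p53 targets was called by edgeR between thymus and bone marrow, where 3, 5, 0, 1, 0 and 0 of them had an unadjusted p under 0.05. Between thymus and spleen Snhg9, a small nucleolar RNA host, alone was called among them (log2 3.59, edgeR adjusted p = 0.0014, or 0.049 with adjusted deviances, and 0.0048 with DESeq2). Between spleen and bone marrow Tardbp, a paraspeckle protein, was higher in spleen (0.44, edgeR adjusted p = 0.034), Tspan32 of the Kcnq1ot1 domain lower (-0.63, 2.3e-04), and of the p53 targets Btg2 was higher (0.47, 0.027) and Fas lower (-0.49, 0.032). None of these 4 passed the other fits: with adjusted deviances the adjusted p was 0.197 for Tardbp, 0.055 for Tspan32, 0.216 for Btg2 and 0.166 for Fas, and with DESeq2 it was 0.99994 for each.

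Between the sexes, where the fit called 4.59% of all genes, male libraries were below female ones in the splicing factor Srsf7 (log2 -0.46, edgeR adjusted p = 0.012) and in Xist, the X inactivation RNA (-9.51). They were above them in the imprinted RNA Peg13 (0.91, edgeR adjusted p = 0.0499) and the p53 targets Bbc3 (0.97, 3.6e-04) and Trp53inp1 (0.64, 0.0091). With adjusted deviances only Xist of these 5 passed (adjusted p = 1.4e-11), and the adjusted p was 0.249 for Srsf7, 0.141 for Peg13, 0.051 for Bbc3 and 0.078 for Trp53inp1. With DESeq2 Xist passed (adjusted p = 2.0e-38), Peg13 was given no adjusted p, and the other three had 0.99972, 0.877 and 0.056 (Srsf7, Bbc3 and Trp53inp1). The median fold change of these lists lay between -0.28 and 0.21 in the 4 contrasts, and that of all genes between -0.05 and 0.02. Over the members it was 0.05, -0.63, 0.46 and 0.05 for thymus against bone marrow, thymus against spleen, spleen against bone marrow and male against female.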

How the data were processed

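The deposited counts are raw UMI counts per gene and barcode; per the file headers, the authors wrote the filtered matrices with Cell Ranger 6.0.2 and the unfiltered ones with Cell Ranger 4, and per the submitters' processing notes the build was GRCm38 (mm10). The members and lists were chosen with earlier results of these data known. Symbols starting with Igh, Igk or Igl (395) were left out of totals and tests. The light-chain share used 163 V genes and the ribosomal share 84 genes; doublets and free RNA were not removed. Sums per library and class were scaled to 1000000 UMIs.

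Organ and sex were tested with edgeR 4.0.16 (R 4.3.3; glmQLFit, glmQLFTest, filterByExpr, TMM) over 9729 genes, with a biological coefficient of variation of 0.0852. The code was checked on simulated counts. Alternatives were DESeq2 1.42.0, other barcode limits and scalings, thinning and each library left out. All 8 members are named, with the 3 genes of most similar pattern for each and up to 3 called genes per list and contrast. Exact Poisson intervals cover counting error only. Tables were read with python 3.11.15, numpy 2.4.6, scipy 1.17.1 and pandas 2.3.3, and figures drawn with matplotlib 3.10.9. The B cell receptor libraries were not used here.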

Additional observations from a re-analysis of the deposited data

Results flagged for a closer look

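Gm47283 changed in opposite directions between organs when ribosomal-poor and ribosomal-rich barcodes with one light chain were compared. The mean log2 ratio was 1.14 over the 2 bone marrow libraries and 1.17 over the 2 spleen libraries, each library positive, and -0.852 over the 2 thymus libraries, each library negative. The difference between organs was not tested. The thymus values rest on 4 and 5 UMIs in the female and 24 and 22 UMIs in the male library.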

How the results depend on the processing

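Over both class contrasts, leaving out each library in turn moved none of 96 mean ratios by more than the spread between libraries, and other alternatives moved 12 of 112 by more. Under every alternative run 7 members were higher in ribosomal-poor barcodes of all libraries, beside 41.2% to 56.4% of all genes where no library was left out. With mixed against one light chain the count of 2 members became 5 with at least 1000 UMIs, 6 with a ribosomal limit of 5%, 6 with 15%, 5 with a light-chain limit of 80% and 7 without Malat1 and Gm42418 in the total, beside 1.97%, 2.7%, 2.16%, 1.78% and 9.44% of all genes. There Neat1 turned to 0.25 (15%) and 0.25 (80%), and Lncpint to 0.29 (80%). The cause was not tested here or below.

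Counts of called genes depended on the setting (main values 125, 141, 362 and 447 for thymus against bone marrow, thymus against spleen, spleen against bone marrow and male against female). They were 49, 36, 104 and 69 with adjusted deviances, 47, 34, 17 and 12 with DESeq2, 13, 11, 6 and 5 after thinning to the smallest library, and 81, 63, 44 and 44 with any ribosomal share. All barcodes gave 242 for thymus against bone marrow and 63 between the sexes, any light-chain share 571 for spleen against bone marrow, the ribosomal-poor class 532 for thymus against spleen, and a ribosomal limit of 15% 91, 234 and 149 for the last 3 contrasts. No scaling gave 216 for thymus against spleen and 765 between the sexes, 567 of them higher in males, against 210 of 447 with TMM. Leaving out 1 library gave 23 to 289, 27 to 317, 6 to 823 and 12 to 1175, the highest without female thymus.

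Of the 7 called fold changes, that of Gm26917 between thymus and spleen turned; the others that turned were of members not called. Over all barcodes they were 0.0048 for Kcnq1ot1 and -0.039 for Gm47283 (thymus against bone marrow), 0.23 for Malat1, 0.19 for Neat1 and 0.056 for D10Wsu102e (thymus against spleen), -0.078 for Neat1 (spleen against bone marrow), and 0.019 for Neat1, -1.09 for Gm42418 and -0.090 for Gm47283 (sexes). With any ribosomal share they were 0.21 for Kcnq1ot1, then 0.47 for Malat1, 0.38 for Neat1, 0.21 for Gm26917 and 0.20 for D10Wsu102e, then 0.18 for Neat1 and -0.063 for Gm42418 (sexes). With any light-chain share Gm42418 gave 0.61 (spleen against bone marrow) and -0.50 (sexes). In the ribosomal-poor class they were -0.44 for Gm47283, then 0.31 for Malat1, 0.29 for Neat1 and 0.079 for Gm26917, then -0.11 for Malat1, -0.20 for Neat1 and -0.13 for Lncpint, then 0.11 for Neat1 and -0.053 for Gm42418. A ribosomal limit of 5% gave -0.062 for Neat1 (thymus against bone marrow), and -0.10 for Lncpint and -0.27 for Gm42418 (sexes). A limit of 15% gave -0.20 for Malat1, -0.37 for Neat1 and, between the sexes, 0.069 for Neat1, and a light-chain limit of 80% -0.12 for Malat1, -0.050 for Neat1, -0.11 for Gm26917 and, between the sexes, 0.030 for Neat1. Thinning gave 0.22 for D10Wsu102e (thymus against spleen), and for Neat1 between the sexes DESeq2 gave 0.0019 and no scaling 0.086. Leaving out 1 library gave -0.55 to 0.24 for D10Wsu102e (thymus against spleen), -0.039 to 0.59 for Gm26917, -0.24 to 0.34 for Malat1 and -0.18 to 0.055 for Neat1 (thymus against bone marrow), -0.88 to 0.21 for Gm42418 (spleen against bone marrow), and -0.18 to 0.46 for Gm42418 and -0.036 to 0.074 for Neat1 (sexes). No paired analysis was possible because each group of sex and organ has 1 library and sex is already a term of the model. Neat1, Kcnq1ot1, Lncpint and Gm47283 fell under the filter after thinning.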
